A study of Mus musculus with 10 samples.

Results

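The Iroquois genes Irx1 to Irx6 encode transcription factors of the TALE homeobox class, and in mouse they lie in 2 clusters of 3 genes. The IrxA cluster holds Irx1, Irx2 and Irx4 on chromosome 13 and the IrxB cluster holds Irx3, Irx5 and Irx6 on chromosome 8. All 6 were found by symbol among 22359 protein-coding genes of the GENCODE M1 annotation of the mm9 genome (NCBIM37). Every peak that came within 2.5 kb of a protein-coding transcription start site (TSS) of an Iroquois gene, lay over its gene body or lay between the genes of a cluster was taken, which gave 123 of the 70826 peaks in the 8 peak lists, 57 in IrxA and 66 in IrxB.

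The data were spike-in ChIP-seq peak lists of H2AK119ub, H3K27me3, H3K4me3 and H3K27ac from mCherry+ cells sorted from day 4 embryoid bodies, aggregates in which mouse ES cells differentiate to mesoderm. WT cells were Scl:mCherry, J1 ES cells with mCherry inserted on 1 Scl allele, which keep functional SCL, and Delta cells were Scl d/d (Scl Δ/Δ:mCherry), made from that reporter line by deleting the bHLH domain of SCL on both alleles. Each line came from 1 sorted clone, the labels name no treatment that differs between the groups, and the 8 libraries with a peak list (plus 2 inputs, not analysed here) gave 1 library per mark and genotype. No difference between WT and Delta given here therefore has a replicate check, a difference between genotypes cannot be told apart from a difference between clones or libraries, and in sorted mixed populations fewer cells with a mark and less mark per cell cannot be told apart.

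Iroquois proteins bind DNA through a homeodomain with an extended loop between its helices and pattern the nervous system, heart, limb and lung, and the cluster arrangement is shared among vertebrates. In cells that do not use them, developmental genes of this kind are classic targets of the Polycomb complexes, of which PRC1 places the ubiquitin of H2AK119ub and PRC2 the methyl groups of H3K27me3. H3K4me3 is placed at CpG-rich promoters and, together with H3K27me3, makes the promoter bivalent, whereas H3K27ac is found at active promoters and enhancers. A peak list gives where a mark passed the caller's threshold, not how much of the mark there is, and it holds no measure of transcription.

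All 6 Iroquois genes had a peak of H2AK119ub, H3K27me3 and H3K4me3 at the TSS (within 2500 bp) in WT and again in Delta, and none had one of H3K27ac in either. No H3K27ac peak lay anywhere in the 1320 kb of IrxA or the 887 kb of IrxB. Among all 22359 protein-coding genes, H2AK119ub was at the TSS of 9.21% in WT and 5.0% in Delta, and at the TSS of 4.14% in both. H3K27me3 was at the TSS of 34.8% in WT, 32.7% in Delta and 27.8% in both, and H3K4me3 at 60.7%, 60.3% and 59.6%. H3K27ac was at the TSS of 19.9% of genes in WT and 22.8% in Delta. The combination of the first 3 marks without H3K27ac was thus a minority state, held by 7.25% of genes in WT, 4.26% in Delta and 3.48% (779 genes) in both genotypes, and all 6 Iroquois genes were among the latter. Of the 2060 genes with H2AK119ub at the TSS in WT, 44.9% also had it in Delta, against 6 of 6 Iroquois genes. These are calls within the TSS window and need not be the same peak. At Irx1, Irx2 and Irx4 no H2AK119ub peak at the TSS was overlapped by a peak of the other genotype. With at least 500 bp of the TSS window covered, H2AK119ub was at 4 of the 6 genes in each genotype.

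**Figure D1:**
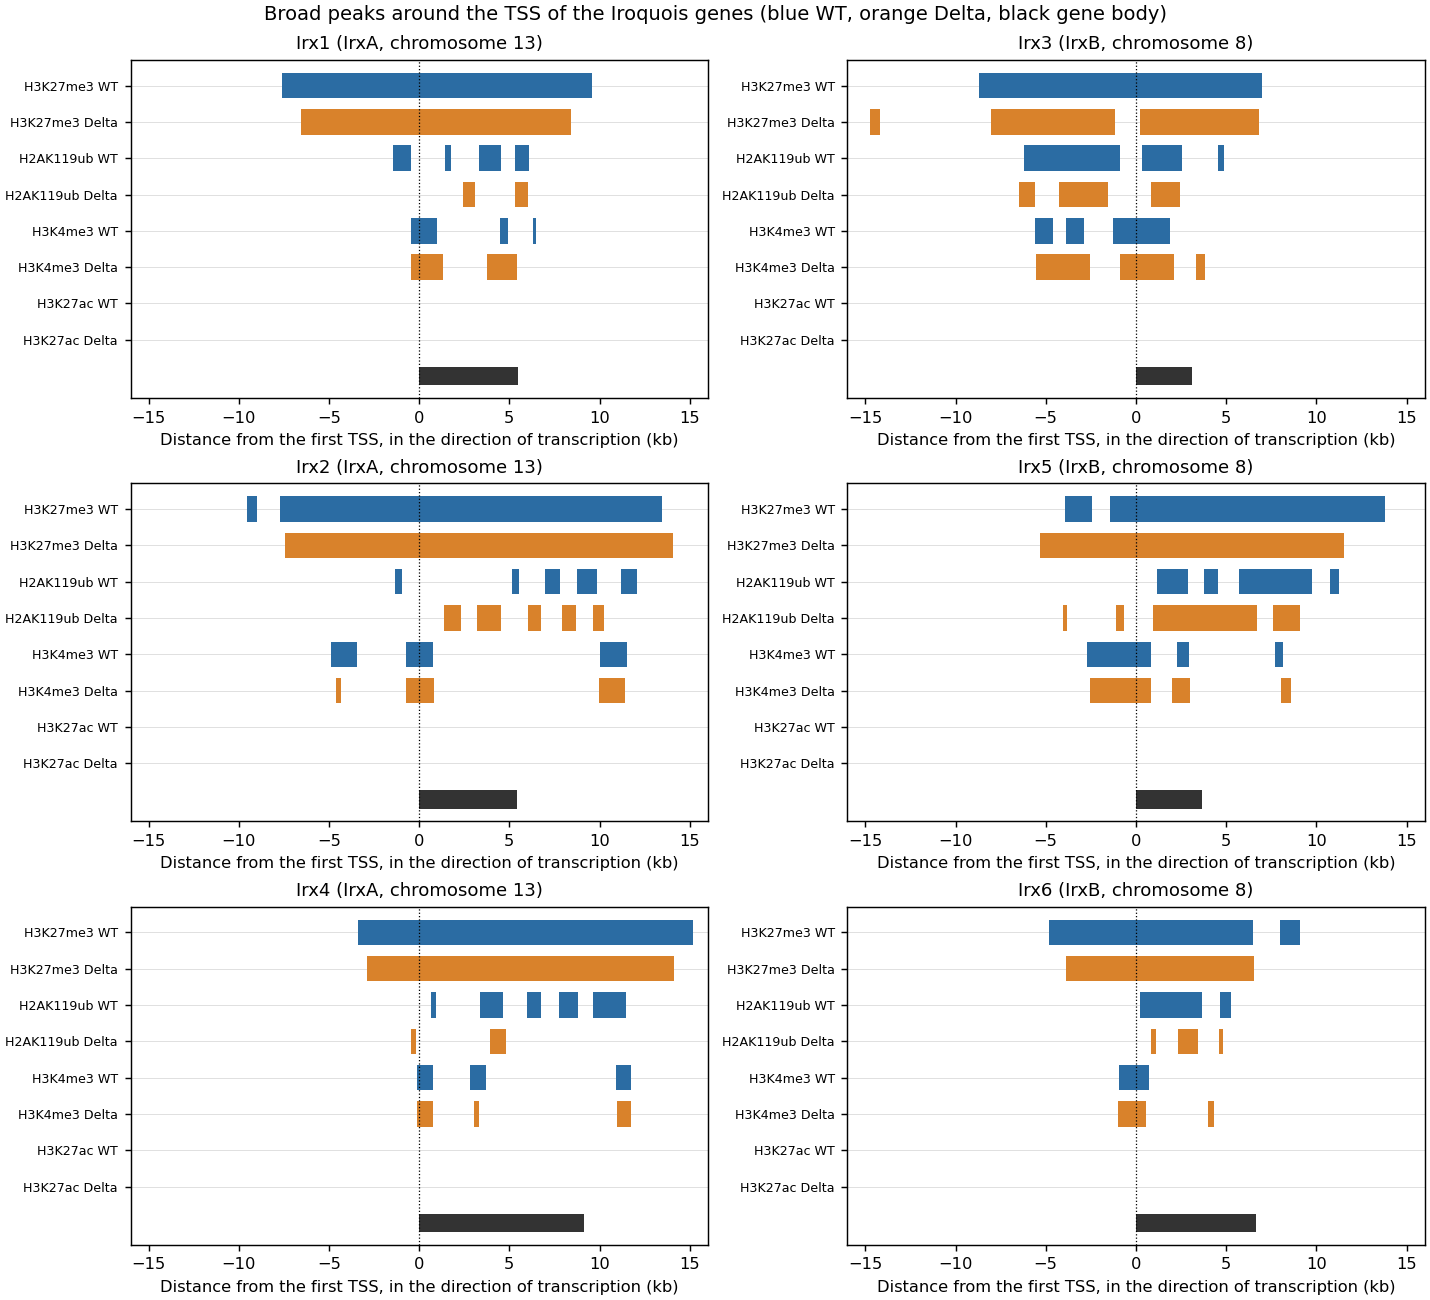
Peaks of the 4 marks (rows, WT blue and Delta orange) within 16 kb of the first TSS of each Iroquois gene, with the x axis in kb in the direction of transcription and the gene body in black. H3K27me3 runs across every TSS except that of Irx3 in Delta, H3K4me3 covers every TSS, H2AK119ub lies beside it, and the H3K27ac rows are empty.

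The DNA just upstream of each first TSS is shown for 4 of the genes because these promoters span the CpG content and the peak layouts of the family. CpG dinucleotides are in capitals, each run is the 250 bases before the TSS, 5′ to 3′ on the strand of the gene, and all are from NCBIM37 (mm9).
Irx1 (chr13:72101172-72101421, − strand): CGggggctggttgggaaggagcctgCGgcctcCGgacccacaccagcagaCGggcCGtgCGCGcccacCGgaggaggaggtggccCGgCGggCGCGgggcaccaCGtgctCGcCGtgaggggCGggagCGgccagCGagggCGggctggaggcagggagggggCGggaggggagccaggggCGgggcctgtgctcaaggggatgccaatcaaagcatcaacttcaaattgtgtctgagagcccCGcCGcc
Irx4 (chr13:73397695-73397944, + strand): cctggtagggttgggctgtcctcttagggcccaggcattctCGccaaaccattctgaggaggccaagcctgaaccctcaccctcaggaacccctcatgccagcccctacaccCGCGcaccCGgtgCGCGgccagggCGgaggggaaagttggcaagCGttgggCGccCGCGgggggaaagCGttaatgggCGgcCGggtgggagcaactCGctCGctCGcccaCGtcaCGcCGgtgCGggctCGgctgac
Irx3 (chr8:94325554-94325803, − strand): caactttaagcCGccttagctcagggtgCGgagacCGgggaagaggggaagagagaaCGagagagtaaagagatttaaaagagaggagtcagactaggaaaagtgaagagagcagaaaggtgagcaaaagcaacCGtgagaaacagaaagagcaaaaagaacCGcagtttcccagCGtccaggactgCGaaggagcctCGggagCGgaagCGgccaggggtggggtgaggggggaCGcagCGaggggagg
Irx6 (chr8:95197938-95198187, + strand): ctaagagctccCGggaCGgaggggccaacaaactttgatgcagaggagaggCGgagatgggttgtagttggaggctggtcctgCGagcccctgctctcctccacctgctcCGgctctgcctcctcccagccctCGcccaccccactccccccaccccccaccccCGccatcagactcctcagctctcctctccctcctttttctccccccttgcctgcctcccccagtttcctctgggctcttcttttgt
The Irx1 promoter held 23 CpG and 74.0% G or C, and 84.5% of 22354 protein-coding promoters held fewer CpG. Irx4 held 22 CpG, Irx2 and Irx5 held 21 each, and Irx3 held 13. The Irx6 promoter held 7 CpG, below the median of 9 over all promoters. In the 250 bases before the first TSS the family therefore did not share a uniformly CpG-dense sequence. H3K4me3 covered all 250 bases of 5 of them in both genotypes, Irx6 included, and 122 (WT) and 147 (Delta) bases of that of Irx4. Over whole H3K4me3 peaks at the Iroquois TSSs, the lowest density was 5.72 CpG per 100 bp in WT and 5.70 in Delta. The list medians were 5.47 and 5.79.

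**Figure D2:**
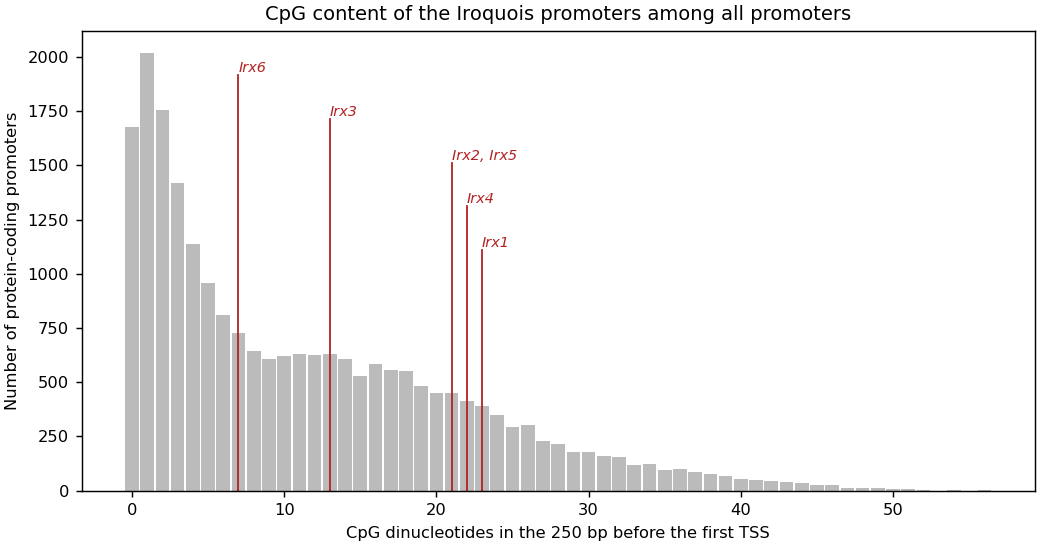
Histogram of the number of CpG dinucleotides in the 250 bp before the first TSS of protein-coding genes (y axis, number of promoters), with the 6 Iroquois genes marked by red lines. 5 of them lie above the median of 9, from Irx3 at 13 to Irx1 at 23, and Irx6 at 7 lies below it.

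The motifs searched on both strands were CANNTG, the general E-box that bHLH factors such as SCL bind, its forms CAGATG and CAGCTG, and GATA, a site of the GATA factors that partner SCL. CANNTG, which includes the CAGATG and CAGCTG matches, was in the promoters of Irx1, Irx2 and Irx6, against 63.3% of all promoters. CAGATG was in that of Irx2 alone, against 12.7%, and CAGCTG and GATA were in none of the 6, against 11.7% and 50.8%. A match in this window is a description and does not show binding, and the lack of one does not show that SCL is absent from the gene. The study's own SCL ChIP-seq, in a different cell fraction of an earlier day, listed Irx3 among the genes bound by SCL.

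H3K27me3, the PRC2 mark, formed 1 long peak over each gene, except at Irx3 in Delta where there were 2, far longer and more enriched than the median peak of its list (1300 bp and 3.71-fold in WT, 1440 bp and 3.88-fold in Delta). The longest was at Irx2, a gene that acts beside Irx1 in much of the embryo, with 21170 bp and 8.22-fold in WT and 21504 bp and 9.42-fold in Delta. In both genotypes 99.1% of the list was shorter. At Irx1, which is used in heart, lung and limb, the peak was 17220 bp (7.51-fold) in WT and 14937 bp (8.25-fold) in Delta. At Irx4, a gene of ventricular heart muscle, it was 18575 bp (7.97-fold) and 16998 bp (7.32-fold). These peaks began between −7.72 kb and −2.87 kb from the TSS and ended past the 3′ end of the gene in both genotypes.

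In IrxB the layout was more varied. Irx5, which shapes the repolarisation of the ventricle wall and acts in retinal bipolar cells, had the most enriched H3K27me3 of the 6, 10.7-fold in both genotypes, over 15246 bp in WT and 16828 bp in Delta. In WT a separate 1488 bp peak lay upstream of it, at a position that the single Delta peak covered. Irx6, expressed in retinal bipolar cells, had the shortest WT peak, 11304 bp (7.10-fold), and 10432 bp (6.79-fold) in Delta. At Irx3, a gene of neural, limb and heart development, 1 WT peak of 15661 bp (8.55-fold) stood in place of 2 Delta peaks of 6592 bp (7.76-fold) and 6915 bp (7.49-fold).

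The interruption at Irx3 in Delta was 1347 bp long (chr8:94325348-94326694) and held the TSS, which lay 206 bp from the nearer peak. All 250 promoter bases printed for Irx3 were under H3K27me3 in WT and 0 were in Delta, while H3K4me3 covered all of them in both genotypes and 1070 of the 1347 bp of the gap in Delta. No H3K27ac peak lay in the gap. Irx3 was the 1 Iroquois gene of 6 whose first TSS was inside an H3K27me3 peak in WT and outside in Delta, which also held for 463 of 3558 genes (13%) with H3K27me3 at the TSS in both and the first TSS inside a peak in WT. Joining peaks up to 3000 bp apart closes this gap, so the interruption depends on how neighbouring regions are merged.

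**Figure D3:**
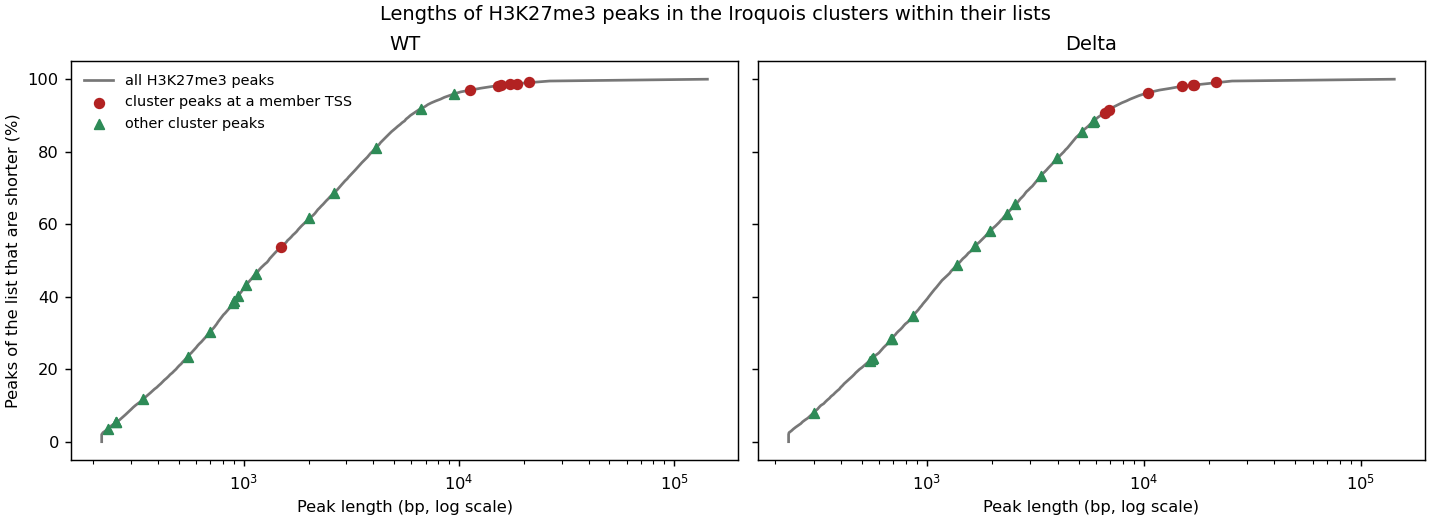
Length of H3K27me3 peaks (x axis, bp on a log scale) against the percent of the list that is shorter (y axis) in WT and Delta, with the cluster peaks drawn as red circles (at a TSS) or green triangles (elsewhere) on the curve of the whole list. The circles sit at the upper end, at 97.0% or more in WT apart from the 1488 bp peak upstream of Irx5, and the 2 parts of the split Irx3 peak lie lower in Delta.

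H3K4me3 covered the first TSS of all 6 genes in both genotypes. Among all genes with an H3K4me3 peak at the TSS, the first TSS was inside one for 79.8% in WT and 76.6% in Delta. With 6 genes, the count lies near these shares. For H3K27me3 the first TSS was inside a peak at 6 of the Iroquois genes in WT and 5 in Delta, against 49.7% and 50.3%. The H3K4me3 peaks were broadest at Irx5 (3522 bp in WT, 3382 bp in Delta) and Irx3 (3168 bp and 2991 bp). They were shorter at Irx6 (1695 bp and 1544 bp), Irx2 (1466 bp and 1523 bp) and Irx1 (1456 bp and 1771 bp), and shortest at Irx4 (861 bp and 940 bp). Their fold enrichment was modest, between 4.76 (Irx4) and 5.74 (Irx5) in WT and between 3.69 (Irx6) and 6.15 (Irx1) in Delta, against list medians of 6.42 and 6.01. The Irx6 peak went from 5.07-fold in WT to 3.69-fold in Delta and that of Irx1 from 4.86-fold to 6.15-fold, so the genes differed in both directions.

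Further H3K4me3 peaks lay away from the TSS under the same H3K27me3 domains. One lay 10 to 11.5 kb past the TSS of Irx2 (1519 bp and 3.91-fold in WT, 1406 bp and 5.01-fold in Delta) and one 10.9 to 11.7 kb past that of Irx4 (823 bp and 5.16-fold, 783 bp and 3.85-fold), each beyond the 3′ end of the gene and with a counterpart in the other genotype. In all, 95.2% of the H3K4me3 bases of the clusters were under H3K27me3 in WT and 95.3% in Delta, against 31.0% and 30.0% of the bases of the whole lists. Every one of the 17 H3K4me3 peaks in each genotype touched H3K27me3, against 50.6% and 48.2% of the peaks of the lists. The clusters' H3K4me3 thus lay almost wholly within H3K27me3, which was not so for the mark in general.

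H2AK119ub, the PRC1 mark, was found as peaks to the side of the TSS. With both clusters pooled, their lengths and folds were near those of the mark in general. The median cluster peak was 870 bp and 3.58-fold in WT and 763 bp and 3.93-fold in Delta, against 717 bp and 3.62-fold, and 771 bp and 4.00-fold, over the lists. Of the 23 WT peaks 16 were longer than the list median, and of the 19 Delta peaks 9 were. The clusters differed in length, with medians of 1710 bp (WT) and 998 bp (Delta) in IrxB and 844 and 749 bp in IrxA. No first TSS of the 6 genes was inside an H2AK119ub peak, against 17.4% of the genes with such a peak at the TSS in WT and 14.0% in Delta. Most genes with the mark thus shared this layout, and with 6 genes the count lies near those shares. The nearest peak began 246 bp (Irx6), 351 bp (Irx3), 465 bp (Irx1), 638 bp (Irx4), 971 bp (Irx2) and 1170 bp (Irx5) from the TSS in WT. In Delta the distance was 174 bp at Irx4, 659 bp at Irx5, 817 bp at Irx6, 842 bp at Irx3 and 1373 bp at Irx2. At Irx1 in Delta it was 2437 bp, just inside the 2500 bp window, so its call depends on that limit.

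All 23 H2AK119ub peaks of the clusters in WT and all 19 in Delta lay wholly inside H3K27me3 peaks, so 100% of their bases were under that mark. Over the whole lists 80.0% of the H2AK119ub bases were in WT and 96.3% in Delta, so the Delta clusters were near the general share. By the looser measure of touching an H3K27me3 peak, the list shares were 74.8% and 94.7% of peaks. H2AK119ub in turn covered 23.4% of the clusters' H3K27me3 bases in WT and 16.2% in Delta, against 13.8% and 8.82% over the lists. Within H3K27me3, H2AK119ub covered 33.7% of the bases that also had H3K4me3 and 21.5% of the others in the WT clusters, and 24.3% and 14.6% in the Delta clusters. Over the lists the corresponding values were 12.7% and 14.2% in WT and 6.90% and 9.31% in Delta, the opposite order. The cluster values pool IrxA and IrxB, and most of the bases with both H3K4me3 and H2AK119ub lay in IrxB. In WT, H2AK119ub covered 61.7% of the 3168 bp H3K4me3 peak at the TSS of Irx3 and 0% of those at Irx1 and Irx2. In Delta, H2AK119ub covered 0% of the H3K4me3 peaks at Irx4, 0% to 16.4% at Irx2 and 0% to 9.47% at Irx1. It covered 6.64%, 20.1% and 9.37% of the H3K27me3 peaks over these genes. In WT the genes of IrxA differed, with 0% to 13.5% against 19.8% at Irx1 and 11.7% to 69.5% against 28.1% at Irx4. The pooled order was therefore not that of IrxA as a whole. The highest −log10 q of an H2AK119ub peak was 2.56 in WT and 2.59 in Delta for IrxA, and 2.65 and 2.91 for IrxB, so none reached 3, a value that was rare for this mark in general, reached by 99 of 4922 peaks of the WT list (2.01%) and 49 of 2388 of the Delta list (2.05%). At a threshold of 3 the mark would be called at 0 of the 6 genes.

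The length covered by H2AK119ub within 10 kb of a gene differed between the libraries, and not in one direction. It was shorter in Delta at Irx4 (5213 bp in WT and 1129 bp in Delta), Irx6 (4054 and 1624 bp), Irx1 (3445 and 1399 bp) and Irx3 (7851 and 5158 bp). It was longer in Delta at Irx2 (3516 and 4323 bp) and Irx5 (7022 and 7893 bp). Delta was thus lower at 4 of 6 genes, and the median ratio of Delta to WT was 0.532, while among the 1519 genes with H2AK119ub in both genotypes 72.9% were lower in Delta and the median ratio was 0.657. With 6 genes, the share and the size lie near those of all such genes. Over the whole lists Delta covered 0.540 times the length of WT.

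For H3K27me3 within 10 kb the ratio of Delta to WT was 0.839 at Irx6, 0.862 at Irx3, 0.867 at Irx1, 0.915 at Irx4, 0.990 at Irx2 and 1.01 at Irx5. It was below 1 at 5 of 6 genes, against 47.6% of the 8301 genes with the mark in both. That count was 4 within 5 kb and 4 with peaks of a −log10 q of at least 3 only. It was 5 within 20 kb and 6 with peaks up to 3000 bp apart joined. H3K4me3 went the other way at most of the genes, with ratios of 1.64 at Irx1, 1.24 at Irx3, 1.10 at Irx6 and 1.06 at Irx5, and of 0.786 at Irx4 and 0.733 at Irx2. Delta was lower at 2 of 6, against 68.2% of 14699 genes. The 2 genes with less H3K4me3 length were both in IrxA. With peaks of a −log10 q of at least 3 only, H3K4me3 was shorter in Delta at 5 of the 6.

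**Figure D4:**
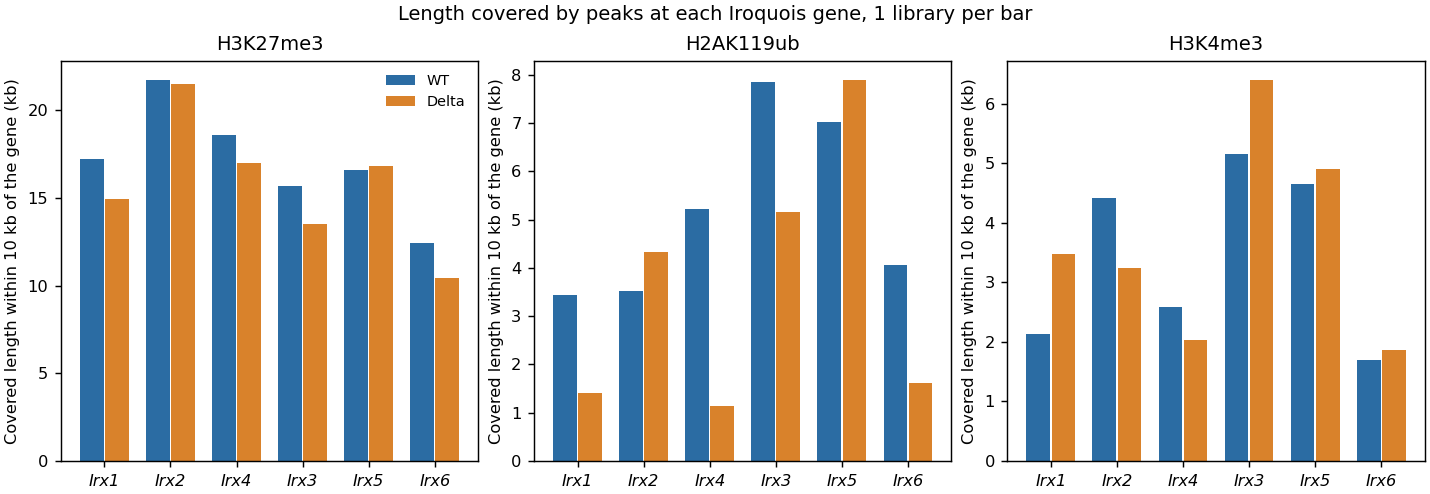
Length in kb covered by peaks of H3K27me3, H2AK119ub and H3K4me3 within 10 kb of each Iroquois gene (bars from 0, WT blue, Delta orange, 1 library per bar and so no error bar). H2AK119ub is longer in WT at Irx1, Irx4, Irx3 and Irx6 and longer in Delta at Irx2 and Irx5, and H3K27me3 is longer in WT at every gene except Irx5.

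H2AK119ub peaks of IrxA had a counterpart in the other genotype less often than those of IrxB in these lists, with intervals that overlap; the difference was not tested. In IrxA, 3 of 14 WT peaks (21.4%, 95% Wilson interval 7.57% to 47.6%) and 3 of 9 Delta peaks (33.3%, 12.1% to 64.6%) were overlapped by a peak in the other genotype. In IrxB, 7 of 9 (77.8%, 45.3% to 93.7%) and 8 of 10 (80.0%, 49.0% to 94.3%) were. Over the lists 31.5% of WT and 67.2% of Delta peaks had a counterpart. Neighbouring peaks are not independent, and the intervals cover counting error only. With peaks up to 3000 bp apart joined, 3 of 4 peaks in IrxA and 3 of 3 in IrxB had a counterpart in each genotype, so the contrast between the clusters depends on how the peaks are split. Of the 5 Delta peaks near Irx2, 4 had no WT peak at the same place, so the mark was listed at that gene in both genotypes over largely separate bases.

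The Polycomb marks covered a larger percent of IrxB, which is shorter than IrxA. H2AK119ub covered 2.13% of IrxB in WT and 1.65% in Delta, against 0.910% and 0.520% of IrxA and 0.198% and 0.107% of the genome. H3K27me3 covered 7.36% and 7.47% of IrxB, 4.63% and 4.72% of IrxA, and 1.15% and 1.17% of the genome. In bases H3K27me3 was nearer in both clusters, with 65327 bp (WT) and 66331 bp (Delta) in IrxB and 60965 and 62071 bp in IrxA, while H2AK119ub covered 18927 and 14675 bp of IrxB and 11981 and 6851 bp of IrxA. The ratio of Delta to WT for H2AK119ub was 0.775 in IrxB, which became 0.994 with peaks up to 3000 bp apart joined, and 0.572 in IrxA, which became 0.530. The longest H2AK119ub peaks were a 5340 bp peak before Irx3 in WT (from −6.20 to −0.864 kb) and a 5724 bp peak at Irx5 in Delta (0.973 to 6.70 kb past the TSS). The longest in IrxA were 1854 bp beyond Irx4 in WT and 1300 bp in Irx2 in Delta. A local background was solved for every peak from its deposited fold and p-value. Its median on chromosome 8 was 1.35 to 1.63 times that on the autosomes other than 1 and 8, depending on the list, and on chromosome 13 it was 0.937 to 0.987 times that level. Its part in the difference between the clusters was not tested.

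Between the genes the clusters were mostly free of peaks. The genes lie 665 kb (Irx1 to Irx2), 626 kb (Irx2 to Irx4), 556 kb (Irx3 to Irx5) and 313 kb (Irx5 to Irx6) apart, and the longest stretch without a peak of any list was 374, 614, 144 and 207 kb in these gaps. More than 10 kb from any Iroquois gene there was no H2AK119ub peak in either genotype, and there were 14 H3K27me3 peaks in WT (30427 bp) and 17 in Delta (38285 bp), of which 9 and 9 had a counterpart. None of them lay between Irx2 and Irx4. In IrxA they were a group upstream of Irx2, from −283 to −256 kb of its TSS, with 4 peaks in WT and 6 in Delta and a longest peak of 4125 bp (3.62-fold) in WT and 5824 bp (3.95-fold) in Delta. In IrxB they were spread on both sides of Irx5, the longest without H3K4me3 being a WT peak of 9454 bp (4.17-fold) from −271 to −262 kb of the TSS of Irx3, which was listed in Delta as 2 peaks of 2556 and 3347 bp.

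**Figure D5:**
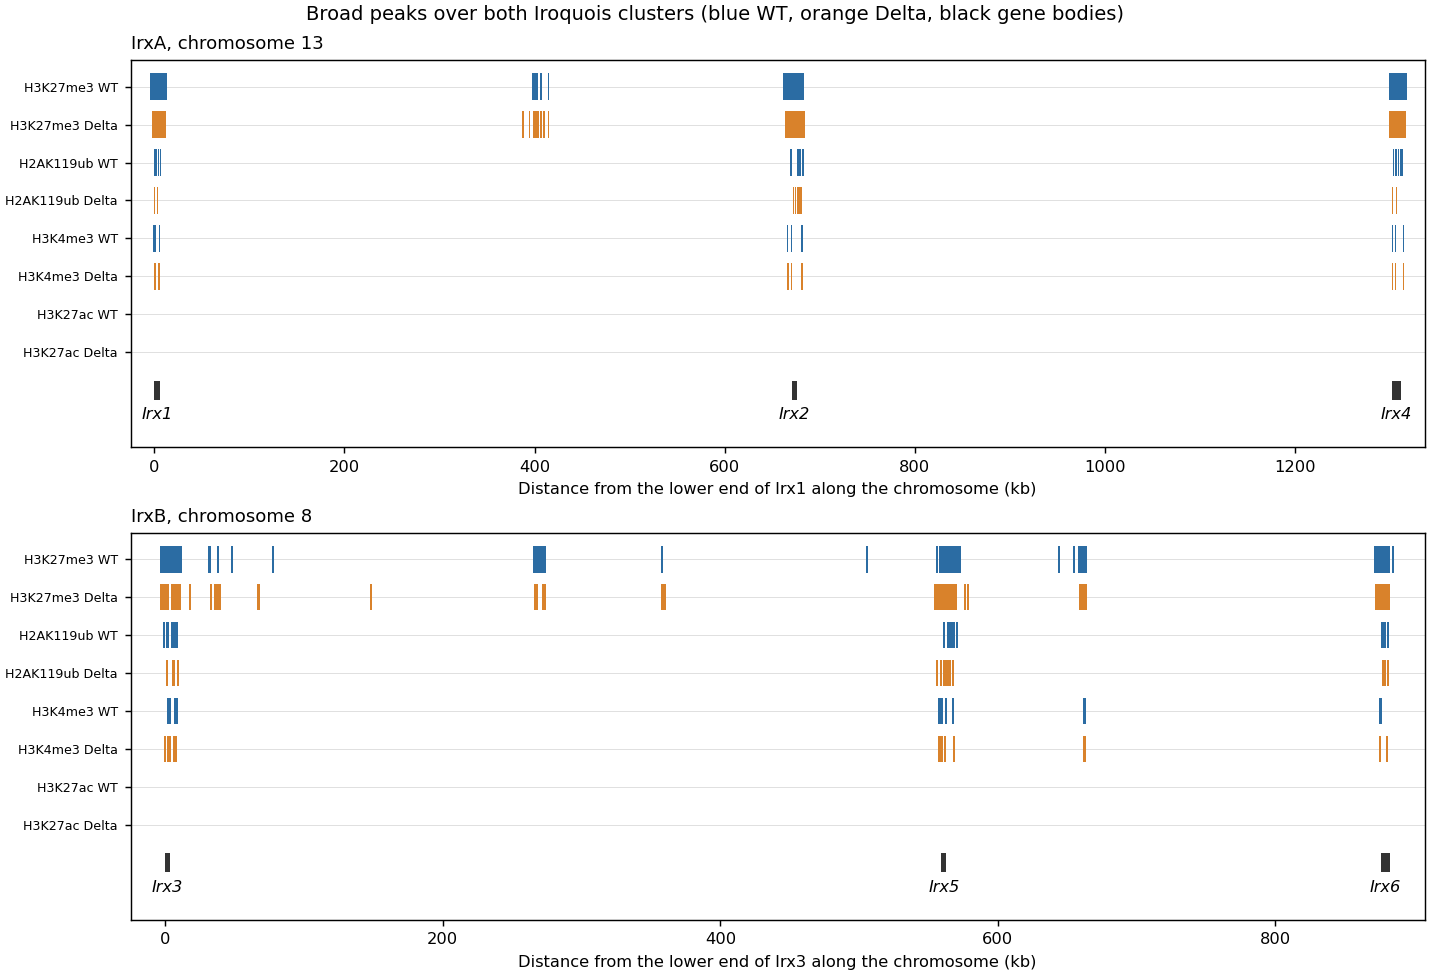
Peaks of the 4 marks (rows, WT blue and Delta orange) along both clusters, with the x axis in kb from the lower end of Irx1 or Irx3 and the genes in black. Peaks shorter than 1.5 kb are drawn 1.5 kb wide to be visible. No H2AK119ub peak lies more than 10 kb from an Iroquois gene, and H3K27me3 is also listed between the genes.

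More than 10 kb from any Iroquois gene, a single site carried H3K4me3. It lay about 102 kb past the TSS of Irx5, where H3K4me3 peaks of 937 bp (5.60-fold) in WT and 1074 bp (5.57-fold) in Delta lay wholly inside H3K27me3 peaks of 6667 bp (6.02-fold) and 5871 bp (7.45-fold). Neither genotype had H2AK119ub or H3K27ac there, and GENCODE M1 lists no gene at it. The middle 300 bases of this site and of the longest WT H3K27me3 peak of IrxA without H3K4me3 are shown to set their base composition side by side, on the + strand of NCBIM37 (mm9) with CpG in capitals.
site past Irx5 with H3K4me3 and H3K27me3 (chr8:94984365-94984664): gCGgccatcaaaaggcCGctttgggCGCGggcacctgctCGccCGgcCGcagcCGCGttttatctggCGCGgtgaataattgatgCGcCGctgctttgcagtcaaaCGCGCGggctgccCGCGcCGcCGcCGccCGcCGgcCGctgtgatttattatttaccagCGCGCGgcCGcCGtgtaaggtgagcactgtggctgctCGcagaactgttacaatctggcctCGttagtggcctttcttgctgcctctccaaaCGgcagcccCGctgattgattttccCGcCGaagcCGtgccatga
site before Irx2 with H3K27me3 alone (chr13:72497255-72497554): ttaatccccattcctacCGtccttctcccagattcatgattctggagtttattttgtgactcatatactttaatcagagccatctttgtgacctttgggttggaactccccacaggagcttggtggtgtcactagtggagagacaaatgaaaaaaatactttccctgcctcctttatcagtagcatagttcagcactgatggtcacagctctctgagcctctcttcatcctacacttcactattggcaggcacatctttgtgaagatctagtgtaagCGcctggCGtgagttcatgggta
The first run held 36 CpG and 63.7% G or C, and the second 3 CpG and 45.0%. The value was 11.4 CpG per 100 bp over the whole 937 bp WT H3K4me3 peak of the first site. It was 1.28 over the whole 4125 bp WT H3K27me3 peak of the second, so the marks and lengths compared differ. The H3K27me3 peaks of the clusters that were not at a TSS had a median of 1.18 CpG per 100 bp in both genotypes, against 2.85 (WT) and 3.04 (Delta) for those at a TSS and 3.01 and 2.85 for the whole lists. H3K4me3 peaks at the TSS had 9.82 and 8.66, against 5.47 and 5.79 over the lists. The WT H3K4me3 peak past Irx5 was thus as CpG-dense as the densest WT H3K4me3 peak at an Iroquois TSS (11.3 CpG per 100 bp).

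Other genes inside the clusters shared the marks where they abut an Iroquois gene. The lincRNA gene D230002A01Rik, antisense to Irx3 and starting inside it, had H2AK119ub, H3K27me3 and H3K4me3 at its TSS in both genotypes, from peaks that it shares with Irx3. The gene 4933436C20Rik (also Crnde), which starts next to Irx5 on the opposite strand, had H3K27me3 and H3K4me3 in both and H2AK119ub in Delta only. The pseudogene Rpl9-ps4 in IrxA and a U6 gene in IrxB had none of the 4 marks.

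The nearest protein-coding genes outside the clusters, 2 at each end, mostly lacked the Polycomb marks. Of these 8, Adamts16, an extracellular protease gene beyond Irx1, had H3K27me3 in both genotypes and H2AK119ub in WT, and the other 7 had neither. H3K4me3 was at 5 of the 8 in WT and 4 in Delta. H3K27ac was at Mrpl36 in WT only, and at Fto and Rpgrip1l in Delta only. Fto, whose introns are known to hold enhancers of Irx3, thus had H3K4me3 without H3K27me3 at its TSS in both genotypes while Irx3 had both.

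The other genes of the TALE class, 11 of which were read here, were a mixed group beside the Iroquois genes. H3K4me3 was at the TSS of 11 of 11 in both genotypes and H3K27me3 at 7 in each, with Tgif1 in WT only and Pbx3 in Delta only. H2AK119ub was at Meis1 and Meis2, cofactors of Hox proteins, in both, and at Mkx, a tendon regulator, in Delta only. Meis1 and Meis2 thus had the combination of the Iroquois genes, without H3K27ac, in both genotypes, and Mkx had it in Delta. H3K27ac was at 4 of 11 in WT (Pbx3, Pknox1, Tgif1 and Tgif2) and at 5 in Delta, these 4 and Pknox2, against 0 of 6 Iroquois genes. Of the genes that mark these cells, Tal1 (Scl) had H3K27ac in WT only with H3K27me3 and H3K4me3 in both, Kdr had H3K27me3 and H3K4me3, and Mesp1, a gene of early cardiac mesoderm, had the same 3 marks as the Iroquois genes in both genotypes. The mesoderm genes Pdgfra and T had H3K27me3 and H3K4me3 in both and H2AK119ub in WT only, and Etv2, a regulator of blood and endothelium, had H3K4me3 alone. The housekeeping genes Gapdh and Actb had H3K27ac and H3K4me3 in both genotypes, and short H3K27me3 peaks of 1341 and 1005 bp in WT and 263 and 929 bp in Delta. The longest H3K27me3 peak at each Iroquois gene was at least 11304 bp in WT and 6915 bp in Delta.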

How the data were processed

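The peak lists of the 8 ChIP-Rx libraries were used as deposited, 1 list per mark and genotype. Per the study's methods, the authors mapped reads with Bowtie to mm9 and dm3, kept uniquely mapped reads, removed duplicates with SAMtools and called broad peaks with MACS2 2.0.10 (broad cutoff 0.05) in each library against the input of the same genotype, without pooling. The Drosophila spike-in scaling was applied to signal densities, not to peak calls. The deposited values per peak are a fold enrichment, which is a ratio over the local background, a −log10 p-value, a −log10 q-value and a score, which repeats the −log10 q multiplied by 10 (to within 1) and was not used. The lists hold no read numbers, and sequencing depth was not used.

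Genes came from GENCODE M1. A peak was at the TSS when it came within 2500 bp of any protein-coding TSS, and had a counterpart when at least 1 bp was overlapped in the other genotype. Overlaps were computed in Python 3.11.15 with numpy 2.4.6 and scipy 1.17.1, and checked against bedtools 2.31.1 on simulated peaks. With 1 library per group no test was made. Groups came from the sample titles. The genes named are the 6 Iroquois genes, the TALE list (of which 1 gene is not reported here), the 2 coding genes nearest each cluster end, noncoding genes within, marker genes, and the longest or unmatched peaks. Members and lists were chosen with earlier results of these data known. The alternatives tried were other TSS windows, cluster edges, overlap minimums and peak thresholds, and joining of neighbouring peaks.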

Additional observations from a re-analysis of the deposited data

How the results depend on the processing

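No paired analysis was possible because each mark and genotype had 1 library. Of 209 values recomputed under the alternatives, 173 stayed within the limit of 1.5 times (or the interval of a share) and 36 moved. The 173 include the H3K27ac values, which were 0 and could not rise under stricter thresholds. They also include most values at a fold enrichment of at least 3, which few cluster peaks failed. The tally is therefore not a measure of robustness. With a −log10 q of at least 3, H2AK119ub was at 0 of the 6 TSSs, with 0 peaks and 0 bp in both clusters, in WT and in Delta. At that threshold IrxA kept 4 H3K27me3 peaks in WT, and 5 (6024 bp, WT) and 4 (5640 bp, Delta) H3K4me3 peaks. IrxB kept 5 (WT) and 7 (Delta) H3K27me3 peaks and 5 H3K4me3 peaks in Delta. The shares with a counterpart became 100% (WT) and 84.6% (Delta) for H3K27me3 and 100% for H3K4me3 in Delta, and H3K4me3 near the gene was then shorter in Delta at 5 of 6 genes instead of 2. This alternative for the 10 kb surroundings, widths of 5 and 20 kb, and joining within each cluster were chosen after seeing the data. With peaks up to 3000 bp apart joined, H2AK119ub became 4 peaks in IrxA in each genotype (25633 bp in WT, 13577 bp in Delta) and 3 in IrxB in each (26180 bp in WT, 26023 bp in Delta), and its share with a counterpart over both clusters rose from 43.5% (WT) and 57.9% (Delta) to 85.7% in each. Joined IrxA had 5 H3K27me3 peaks in WT and 15196 bp (WT) and 13268 bp (Delta) of H3K4me3, IrxB had 5 H3K4me3 peaks in WT, and 100% of WT H3K4me3 peaks had a counterpart. The fewer peaks follow from the construction of both alternatives. H2AK119ub was at 5 of 6 TSSs in each genotype within 1000 bp, and the genes with less of it in Delta were the same 4 at 5, 10 and 20 kb and after joining.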

Other observations

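RefSeq lists long noncoding RNA genes in the clusters, some of which GENCODE M1 lacks. The RefSeq promoter windows of 18 entries (GRCm38) were matched to mm9 by exact sequence, of which 3 belonged to Irx2, Irx3 and Irx4 and 15 to noncoding genes. Of these 15 windows, 11 held no peak of any list. The other 4 abut an Iroquois gene. Gm20554, divergent from Irx2, had H3K27me3 and H3K4me3 in both genotypes. So did Crnde beside Irx5, the GENCODE M1 gene 4933436C20Rik named above, whose Delta H2AK119ub peaks lay outside this narrower window. Irx3os had H2AK119ub and H3K27me3 in both. Its window lay inside the gene D230002A01Rik named above, on the same strand, and the H3K4me3 peaks of that gene lay outside this window. Gm39222, just past the 3′ end of Irx3, had H3K27me3 in both and H3K4me3 in Delta only.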
